A study of Homo sapiens with 6 samples.

Results

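Cells read stress through a small set of sensors, and the signals of some of them meet at protein synthesis. The 10 genes described here encode those sensors and the proteins they act on, measured in K562 cells, a human chronic myeloid leukemia cell line grown in suspension. They are the endoplasmic reticulum (ER) stress sensors ERN1 and ATF6 with the transcription factor gene XBP1, the eIF2α kinase genes EIF2AK1, EIF2AK2, EIF2AK3 and EIF2AK4, the eIF2α gene EIF2S1, and the phosphatase subunit genes PPP1R15A and PPP1R15B. They were taken by symbol from a table of 24960 genes, and all 10 passed the filter on low counts. RNA-seq was performed on 3 libraries of the control group and 3 of the hyperoside group. Hyperoside is a plant flavonol glycoside. The study names a millimolar dose for the sequenced cells, which the labels do not give. The labels also do not say what the control cells received, how long cells were treated before RNA was taken, or whether replicates were separate cultures, so p-values measure the spread between these libraries, which may be technical. All libraries come from this 1 cell line.

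When unfolded proteins collect in the ER lumen, the chaperone BiP leaves the sensors. IRE1α, the ERN1 product, then cuts XBP1 mRNA, ATF6 travels to the Golgi and is cleaved there, and PERK, the EIF2AK3 product, phosphorylates eIF2α. HRI (EIF2AK1), PKR (EIF2AK2) and GCN2 (EIF2AK4) phosphorylate the same serine in response to heme shortage or mitochondrial stress, double-stranded RNA and amino acid shortage. Phosphorylated eIF2α slows most translation but lets ATF4 be made, and GADD34 (PPP1R15A, inducible) and CReP (PPP1R15B, constitutive) bring protein phosphatase 1 (PP1) to eIF2α to reverse the signal. RNA sequencing measures the amount of these transcripts, not cleavage, phosphorylation or enzyme activity.

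The libraries held from 35613283 to 36754725 counts, and the 10 genes had between 964 and 18794 counts in a library, so the counting error of the lowest was 3.22%. The 5 erythroid and K562 markers reported here (GATA1, TAL1, KLF1, HBZ and EPOR) were all tested, with a sum of 595 to 704 CPM (counts scaled to a common library total) under control and 667 to 842 CPM under hyperoside, KLF1 and EPOR being higher and the other 3 not called. Of 11 markers of other cell types, 5 passed the filter and none was at 0 in every library. The sum of the 11 was 83.5 to 85.3 CPM under control and 84.2 to 88.8 CPM under hyperoside. It was mostly EPCAM, which was not called and had means of 78.4 and 77.1 CPM after edgeR's TMM normalization, a different scaling from that of the sums. The other 4 tested markers stood at means of under 3 CPM after the same normalization, COL1A1 being lower and COL3A1 higher. The markers' part in the results below was not tested.

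Of the 10 genes, 7 were lower in the hyperoside group and 3 were not called at a Benjamini-Hochberg adjusted p under 0.05 in edgeR's quasi-likelihood test. None was higher (0 of 10), also at an unadjusted p under 0.05 and in DESeq2 and limma. The 7 lower genes are 70% of the set, and over all 15095 tested genes 23.2% were lower, 22.1% were higher and 45.3% changed in either direction. The median log2 fold change (log2FC, hyperoside against control) of the 10 genes was -0.26, and that of all tested genes was 0.00316. Fold changes were modest. Only ERN1 of the 10 also passed the study's 2-fold rule, which 10.2% of all tested genes passed. The normalised CPM of the groups did not overlap in 7 of the 10 genes (6 lower and 1 higher), against 54.4% of all tested genes. In these bulk libraries, fewer cells with a transcript and less transcript per cell cannot be told apart.

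**Figure D1:**
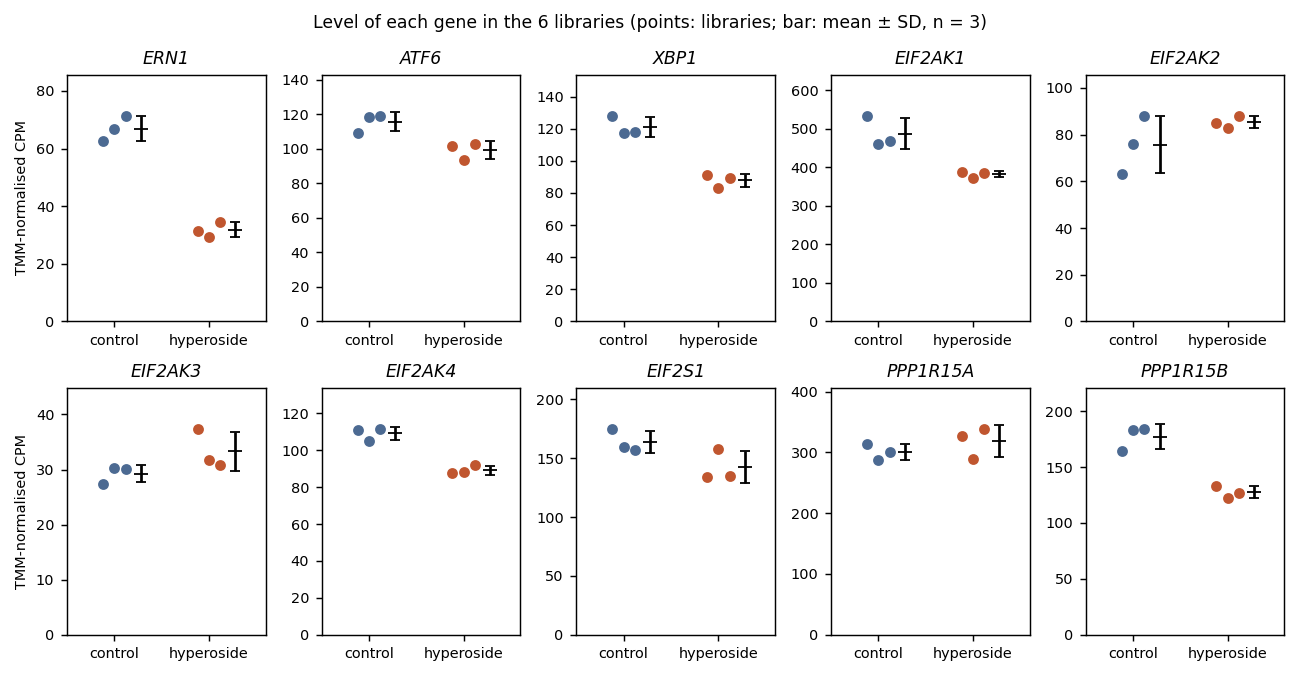
TMM-normalised CPM (vertical axes, starting at 0) of the 10 genes in each control and hyperoside library, 1 point per library, with the mean ± SD of each group (n = 3). ERN1 shows the widest gap relative to its level, from 62.5 to 71.4 CPM in the control libraries down to 29.4 to 34.5 in the hyperoside libraries, and the points of EIF2AK2, EIF2S1 and PPP1R15A overlap between the groups.

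ERN1, the gene of the kinase and endoribonuclease IRE1α, fell most of the 10 genes on the log2 scale. It stood at 62.5, 66.9 and 71.4 normalised CPM in the control libraries, against 31.6, 29.4 and 34.5 in the hyperoside libraries (here and below in the order of replicates 1, 2 and 3). Every hyperoside library lay far under every control library. The mean was 67.0 ± 4.44 CPM under control and 31.8 ± 2.58 CPM under hyperoside (SD, n = 3 each), so that 47.5% of the control level was left. This is a log2FC of -1.07 with a standard error of 0.09 and a 95% interval from -1.26 to -0.88 (edgeR adjusted p = 5.01e-08), an interval that spans a 2-fold fall. ERN1 lies at chr17:64039142-64130144 of GRCh38 on the minus strand, and no exon of another annotated gene overlaps its exons.

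XBP1 mRNA is the substrate of IRE1α. The enzyme removes 26 bases without the spliceosome, which shifts the reading frame and turns a short-lived protein into the active factor XBP1s. The stretch is shown because the XBP1 transcript fell together with the gene of the enzyme that cuts it, while a count per gene adds the cut and the uncut form.
XBP1 exon 4: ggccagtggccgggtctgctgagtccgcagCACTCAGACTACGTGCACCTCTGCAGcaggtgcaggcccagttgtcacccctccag
The capitals mark the 26 bases as annotated at chr22:28796124-28796149, and the flanks are 30 bases on each side (chr22:28796094-28796179, minus strand, GRCh38, GENCODE 29). These 26 bases lie in exon 4 of a 5-exon XBP1 transcript and are absent from another annotated transcript. The letters CAG stand just before the capitals and also end them, so a shifted stretch leaves the same joined sequence. The ends of the capitals are therefore not the exact cut sites of IRE1α. A further annotated transcript places the removal 2 bases downstream, which also leaves the same joined sequence.

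XBP1 stood at 128, 117 and 118 normalised CPM in the control libraries, against 91.1, 83.1 and 89.2 in the hyperoside libraries. The groups did not overlap. The mean fell to 72.5% of control, from 121 ± 6.07 to 87.8 ± 4.22 CPM (SD, n = 3). Its log2FC was -0.46, with a standard error of 0.08 and an edgeR adjusted p of 7.24e-05. XBP1 lies at chr22:28794560-28800569 on the minus strand, and a named pseudogene, XBP1P1, could share reads with it. How much of this RNA was in the cut form was not measured by these counts.

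ATF6, the sensor that becomes a transcription factor after cleavage in the Golgi, had 109, 118 and 119 normalised CPM in the control libraries, against 102, 93.3 and 103 in the hyperoside libraries. Its groups lay close together without overlapping. ATF6 (chr1:161766320-161964070, plus strand) was called lower, at 85.8% of control (log2FC -0.22, standard error 0.07, edgeR adjusted p = 0.0228). This call was lost in 10 of 14 alternatives, among them each library left out in turn apart from control replicate 1. The adjusted p was 0.0837 without control replicate 2, 0.068 without control replicate 3, 0.0565 without hyperoside replicate 1, 0.108 without hyperoside replicate 2 and 0.0518 without hyperoside replicate 3, and it reached 0.146 over all alternatives.

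Set against each other inside a library, the sensors changed unequally. The log2 ratio of ERN1 to ATF6 in FPKM, counts scaled to gene length and library total, was -1.27, -1.29 and -1.20 in the control libraries, against -2.16, -2.13 and -2.04 in the hyperoside libraries. The ratio was lower in 3 of 3 hyperoside libraries than in any control library. The difference of the means was -0.85 on the log2 scale, and the exact two-sided permutation p was 0.1. That is the lowest p the 20 regroupings of 3 libraries against 3 can reach, so these tests could not pass 0.05, and adjusting over the 3 tests of this kind (Benjamini-Hochberg) left the largest p at 0.1.

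Among the eIF2α kinases, EIF2AK1 and EIF2AK4 fell and EIF2AK2 and EIF2AK3 did not pass the test. EIF2AK1 encodes HRI, the heme-regulated kinase, and was by far the most abundant kinase transcript of this erythroid-like line. It stood at 534, 460.5 and 469.7 normalised CPM in the control libraries, against 388, 373 and 384 in the hyperoside libraries. Control replicate 1 stood above the other control libraries, and all control libraries lay above all hyperoside libraries. The level fell to 78.2% of control (log2FC -0.35, standard error 0.07, edgeR adjusted p = 0.000581), and without control replicate 1 the log2FC was -0.28 (adjusted p = 0.000321). Exons of EIF2AK1 (chr7:6022247-6059175, minus strand) overlap those of AIMP2 on the opposite strand. The use of strand in counting is not given in the sources used here, so reads from the overlap may have been counted or left out.

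EIF2AK4 encodes GCN2, which senses uncharged tRNA. It stood at 111, 105 and 111 normalised CPM in the control libraries, against 87.5, 88.0 and 91.8 in the hyperoside libraries. The libraries within a group lay close together, and the groups did not overlap. EIF2AK4 (chr15:39934115-40035591, plus strand) fell to 81.7% of control, a log2FC of -0.29 with a standard error of 0.07 (edgeR adjusted p = 0.00306).

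EIF2AK3 (chr2:88556741-88628145, minus strand) encodes PERK, the ER-resident kinase. It stood at 27.4, 30.3 and 30.002 normalised CPM in the control libraries, against 37.4, 31.8 and 30.9 in the hyperoside libraries. The hyperoside libraries were the higher ones without overlap, but replicates 2 and 3 lay within 2 CPM of the highest control library. Its log2FC of 0.19 (95% interval -0.02 to 0.40, edgeR adjusted p = 0.130) was not called, and without hyperoside replicate 1 it was 0.10 (adjusted p = 0.519).

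EIF2AK2 (chr2:37099210-37156980, minus strand) encodes PKR, the kinase that binds double-stranded RNA. It stood at 63.3, 76.0 and 87.9 normalised CPM in the control libraries, against 85.1, 83.0 and 88.1 in the hyperoside libraries. The control libraries were spread widely (coefficient of variation 16.2%, against 3.04% in the hyperoside group), and the highest of them reached the hyperoside level. Its log2FC was 0.17 (95% interval -0.03 to 0.38, edgeR adjusted p = 0.159). Single libraries decided this value. Without control replicate 3 it was 0.29 with an adjusted p of 0.019, and without control replicate 1 it was 0.06 with an adjusted p of 0.518. Exons of EIF2AK2 overlap those of GPATCH11 and AC007899.1, and exons of EIF2AK3 those of 2 other annotated genes, in each case on the opposite strand.

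The makeup of the kinase transcripts moved slightly. Summed over the 4 kinases, the level was 141, 130.5 and 137 FPKM in the control libraries, against 118, 113 and 115 in the hyperoside libraries. EIF2AK1 made up 78.5%, 75.4% and 74.5% of this sum in the control libraries, against 72.6%, 72.6% and 72.6% in the hyperoside libraries. The share was lower in 3 of 3 hyperoside libraries, by -3.51 percentage points between the means (exact permutation p = 0.1, two-sided, the smallest possible). Without control replicate 1 the difference was -2.34 percentage points. The shares of EIF2AK2 and EIF2AK3 were larger without overlap, which was not tested further. A share also grows when other parts of the sum fall, and the level of neither gene was called. EIF2AK2 went from a mean of 5.34% to 7.30%, and EIF2AK3 from 4.31% to 5.96%. EIF2AK4 had a share of 14.2% ± 0.60 under control and 14.1% ± 0.42 under hyperoside (SD, n = 3), with overlapping groups.

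EIF2S1 (chr14:67360328-67386516, plus strand) encodes eIF2α, the substrate of all 4 kinases. It stood at 175, 159.5 and 157 normalised CPM in the control libraries, against 134, 158 and 135 in the hyperoside libraries. Hyperoside replicate 2 lay among the control libraries, so the groups overlapped. Its log2FC of -0.20 (standard error 0.08, edgeR adjusted p = 0.0457) only just passed the threshold. The call was lost in 9 of 14 alternatives. The adjusted p was 0.0789 without control replicate 1, 0.0707 without control replicate 2, 0.205 without hyperoside replicate 1 and 0.209 without hyperoside replicate 3. Exons of EIF2S1 overlap those of ATP6V1D on the opposite strand.

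**Figure D2:**
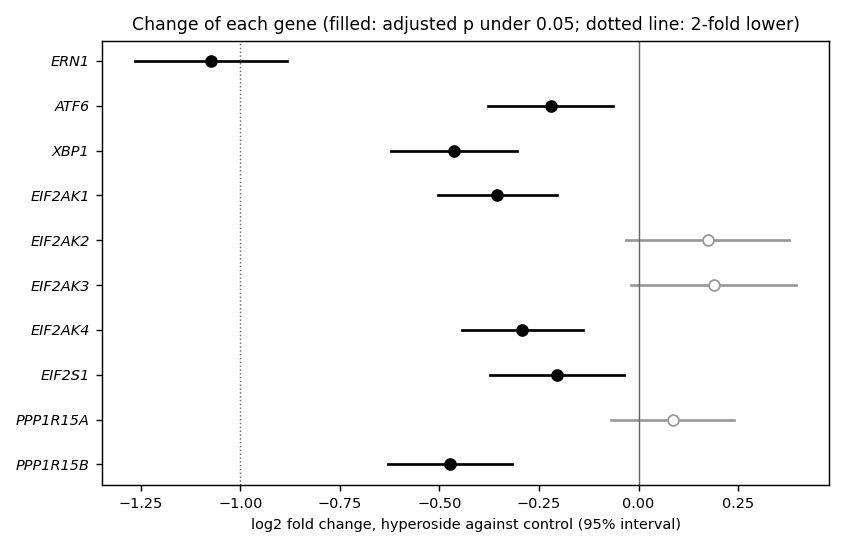
Log2FC of each gene in the hyperoside group against the control group (horizontal axis) with its 95% interval from edgeR, where filled points passed an adjusted p under 0.05 and the dotted line marks a 2-fold fall. ERN1 at -1.07 stands apart from the 6 other lower genes, which lie between -0.47 and -0.20, and the intervals of EIF2AK2, EIF2AK3 and PPP1R15A include 0.

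The phosphatase subunits parted. PPP1R15B, the gene of the constitutive subunit CReP, stood at 164, 183 and 184 normalised CPM in the control libraries, against 133, 123 and 126 in the hyperoside libraries. Again there was no overlap. Its mean fell to 72.0% of control, from 177 ± 11.1 to 128 ± 5.42 CPM (SD, n = 3), and the log2FC was -0.47 with a standard error of 0.07 (edgeR adjusted p = 4.80e-05). PPP1R15B lies at chr1:204395826-204411817 on the minus strand.

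PPP1R15A, the gene of the stress-inducible subunit GADD34, had 313, 288 and 300.1 normalised CPM in the control libraries, against 328, 289.9 and 339 in the hyperoside libraries. Hyperoside replicate 2 lay among the control libraries. PPP1R15A (chr19:48872421-48876058, plus strand) had a log2FC of 0.09 (95% interval -0.07 to 0.24, edgeR adjusted p = 0.363) and was not called in any of 14 alternatives, in which it ranged from 0.05 to 0.15. The interval leaves room for a rise of 0.24 on the log2 scale but not for a fall of the size seen in PPP1R15B.

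The log2 ratio of PPP1R15A to PPP1R15B in FPKM was 2.48, 2.21 and 2.26 in the control libraries, against 2.85, 2.79 and 2.98 in the hyperoside libraries. The inducible subunit was thus the more abundant one in every library, and its excess was larger in 3 of 3 hyperoside libraries. The means differed by 0.56 on the log2 scale (exact permutation p = 0.1, two-sided, again the smallest possible).

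**Figure D3:**
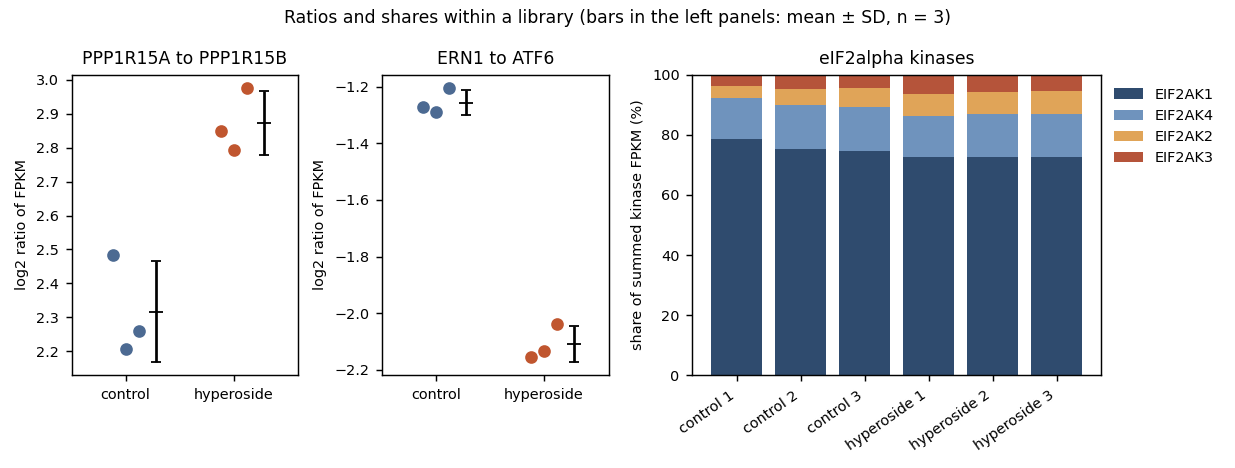
Values formed within a library, which do not depend on library scaling. The left and middle panels show the log2 ratio of FPKM for PPP1R15A to PPP1R15B and for ERN1 to ATF6 (points, libraries, with mean ± SD, n = 3, on axes that do not start at 0), and the right panel shows each kinase's share in percent of the summed kinase FPKM. The groups do not overlap in either ratio, and EIF2AK1 takes 72.6% to 78.5% of the kinase sum.

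Compared per length in FPKM, the 10 genes kept nearly the same order in both groups. In the control group the order from the top was PPP1R15A (126 ± 3.99), EIF2AK1 (104 ± 6.27), XBP1 (61.5 ± 1.74), EIF2S1 (38.7 ± 1.33), PPP1R15B (25.3 ± 2.16), EIF2AK4 (19.4 ± 0.77), ATF6 (14.4 ± 1.01), EIF2AK2 (7.25 ± 1.34), ERN1 (6.04 ± 0.54) and EIF2AK3 (5.85 ± 0.45 FPKM, SD, n = 3). The ranges of EIF2AK2, ERN1 and EIF2AK3 overlapped between neighbours, while all other neighbours were apart. In the hyperoside group the first 8 places were the same, with PPP1R15A at 138 ± 10.8 FPKM. There ERN1 came last, at 2.97 ± 0.23 FPKM, under EIF2AK3 at 6.90 ± 0.78, and no neighbours overlapped. The genes of the ER-resident kinases IRE1α and PERK thus had the lowest mean levels of the set in both groups.

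**Figure D4:**
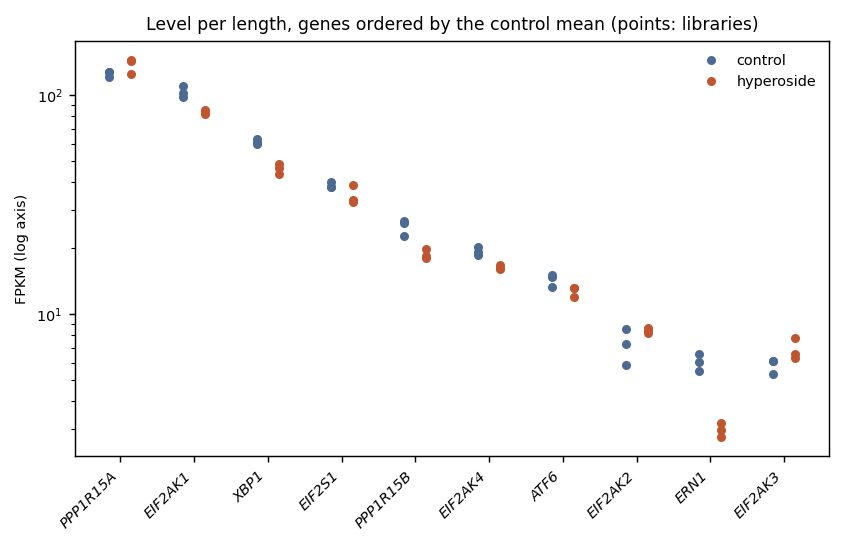
Deposited FPKM of the 10 genes on a log axis, ordered by the control mean, with 1 point per library and the groups side by side. Levels run from over 120 FPKM for PPP1R15A to 2.74 FPKM for ERN1 in hyperoside replicate 2, and the largest step between the groups is that of ERN1.

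Promoter sequences of 9 of the 10 genes (all but EIF2AK1), from 250 bases before to 50 after the start (RefSeq, GRCh38.p14), were searched on both strands for response elements of these pathways. The ER stress response element (ERSE) holds CCAAT and CCACG 9 bases apart and is the site of cleaved ATF6 with NF-Y. ERSE-II holds ATTGG and CCACG 1 base apart. The core letters were TGACGTGG for the unfolded protein response element (UPRE), TGATGNAA for the C/EBP-ATF response element (CARE) bound by ATF4, and TGACGTCA for the cAMP response element (CRE), whose first letters are those of the UPRE. Of the 35116 promoters in the reference, 0.0769% hold an ERSE, 0.0541% an ERSE-II, 0.729% a UPRE, 3.62% a CARE and 1.85% a CRE. The matches in the 10 genes are shown with the motif in capitals, as they belong to XBP1 and to the pair of phosphatase genes that parted. ERN1, ATF6, EIF2AK2, EIF2AK3, EIF2AK4 and EIF2S1 held none of these letters in the window.
XBP1 promoter, ERSE: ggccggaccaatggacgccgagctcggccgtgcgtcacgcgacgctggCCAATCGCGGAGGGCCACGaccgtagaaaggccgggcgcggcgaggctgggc
PPP1R15A promoter, CRE: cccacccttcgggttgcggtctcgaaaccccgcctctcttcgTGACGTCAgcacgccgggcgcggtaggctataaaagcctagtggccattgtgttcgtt
PPP1R15B promoter, CARE: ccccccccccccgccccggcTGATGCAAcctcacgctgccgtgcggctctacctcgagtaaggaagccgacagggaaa
These lie at chr22:28800570-28800669 (minus strand), chr19:48872321-48872420 (plus strand) and chr1:204411987-204412064 (minus strand). The ERSE of XBP1 covers positions -52 to -34 relative to the start and is in 1 of the 2 XBP1 promoters of the reference. The CRE of PPP1R15A covers -58 to -51, and the CARE of PPP1R15B covers -227 to -220. A match of letters is a description and shows no binding in these cells.

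The genes on which the sensors act were measured beside them, in lists drawn up by function with earlier results of these data known, so their counts are a description. Of 16 target genes of ATF6 and XBP1, 14 were lower, 0 were higher and 2 were not called, with a median log2FC of -0.96. Among all tested genes, 23.2% were lower and 22.1% were higher. HSPA5, which encodes BiP, had a log2FC of -2.42, HSP90B1, the ER chaperone GRP94, had -2.08, HERPUD1 had -2.22 and SDF2L1 had -1.58 (edgeR adjusted p from 1.98e-12 to 1.75e-09). The 2 genes that were not called were DNAJB9, a BiP cochaperone and usual XBP1s target, at -0.21 (adjusted p = 0.200), and EDEM1, named after its values were seen, at 0.05 (adjusted p = 0.661). DNAJB9 had 39.8 ± 8.23 normalised CPM under control and 34.3 ± 4.68 under hyperoside (SD, n = 3), with overlapping libraries. Of the 15 of these genes with a promoter in the reference, 3 held an ERSE as XBP1 did (HSPA5, HSP90B1 and CRELD2) and 3 an ERSE-II (HERPUD1, HYOU1 and SDF2L1). HYOU1 also held a UPRE, and HERPUD1 and SRPRB held a CARE. Since 14 of the 16 genes were lower with or without a motif, nothing is read from the direction of those that held one.

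Of 12 genes of the ATF4 branch, which follows eIF2α phosphorylation, 10 were lower and 2 were higher, with a median log2FC of -1.36. The 12 and the 10 lower genes include ATF4, the factor of the branch, beside its output genes. The shares among all tested genes were 23.2% lower and 22.1% higher. ATF4 itself was at -0.72 (standard error 0.08, edgeR adjusted p = 1.02e-06). CHAC1, a glutathione-degrading enzyme, was at -3.41, SESN2 at -1.44, TRIB3 at -1.41 and CEBPG at -1.31 (adjusted p from 3.21e-12 to 1.56e-09). The higher genes, named after their values were seen, were VEGFA at 0.35 (adjusted p = 0.00422) and NUPR1 at 0.69 (adjusted p = 0.0273, overlapping groups). Of the 10 of these genes with a promoter in the reference, 4 held a CARE as PPP1R15B did (ASNS, ATF3, CEBPG and CHAC1). PPP1R15A is usually counted among the genes induced in this branch, and its log2FC of 0.09 stood beside these values without being called.

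Partners of eIF2α and of the phosphatase included genes that were lower, higher and not called. Over all tested genes, 23.2% were lower, 22.1% were higher and 45.3% were called in either direction. Of 7 genes for the other eIF2 subunits and the exchange factor eIF2B, 3 were lower and 4 were not called (median log2FC -0.11). The share called was thus near that of all tested genes. EIF2S2, the eIF2β gene, fell by 0.60 on the log2 scale (edgeR adjusted p = 9.10e-07), EIF2B3 by 0.37 (adjusted p = 0.00296) and EIF2S3, the eIF2γ gene, by 0.19 (adjusted p = 0.0218), while EIF2B4 was at 0.18 (adjusted p = 0.126). EIF2S2 and EIF2S3 were thus called beside EIF2S1, whose own call was lost in 9 of 14 alternatives. Of the 3 catalytic subunits of PP1, PPP1CA was called higher at 0.22 (adjusted p = 0.0477) with overlapping groups, and PPP1CB at 0.20 (adjusted p = 0.160) and PPP1CC at -0.15 (adjusted p = 0.0894) were not called (median 0.20).

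Of 9 genes listed as regulators of the kinases, 1 was higher and 4 were lower (median log2FC -0.02), so 5 of 9 were called, against 45.3% of all tested genes. The ABCE1 promoter held a CRE. PRKRA, an activator of PKR, was at -0.43 (edgeR adjusted p = 0.000205), and DNAJC3, an inhibitor of PERK and PKR, at -0.46 (adjusted p = 0.000448). OMA1, the mitochondrial protease that passes stress to HRI, was at 0.49 (adjusted p = 0.00446). ABCE1, whose action on these kinases is not shown here, was lower, at -0.27 (adjusted p = 0.00787). GCN1, the GCN2 activator, named after its values were seen, was also lower, at -0.21 (adjusted p = 0.0345), with overlapping groups. The 4 genes not called, named after their values were seen, were DELE1, TARBP2, IMPACT and NCK1. Their log2FC was 0.14 (edgeR adjusted p = 0.156), 0.04 (0.740), 0.03 (0.854) and -0.02 (0.887). Of these, only DELE1 had groups that did not overlap.

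Of 14 genes for sensor relatives and processing factors, 13 were tested, of which 6 were higher, 3 were lower and 4 were not called (median log2FC 0.16). The 3 lower genes are near the 23.2% that were lower among all tested genes, and 22.1% of all tested genes were higher. CREB3L2, an ER-anchored factor built like ATF6, rose by a log2FC of 0.65 (edgeR adjusted p = 7.64e-07), and its relative CREB3L1 rose by 0.48 (adjusted p = 0.000529). Other relatives, named after their values were seen, went both ways. CREB3 was lower, at -0.33 (adjusted p = 0.0263). CREB3L4 at 0.38 (adjusted p = 0.0137) and CREB3L3 at 1.02 (adjusted p = 0.0313, from 22 to 70 counts in a library) were higher. The CREB3L2 promoter held a CARE and a CRE. ERN2, the IRE1β gene, had 0.76 ± 0.40 normalised CPM under control and 2.99 ± 0.93 under hyperoside (SD, n = 3), with a log2FC of 1.97 and a standard error of 0.38 (adjusted p = 0.000451), from 13 to 140 counts in a library. TRAF2, which binds activated IRE1α, fell by 0.57 (adjusted p = 0.000159). ATF6B, the paralog of ATF6, was at -0.06 (adjusted p = 0.534). Of the Golgi proteases that cleave ATF6, MBTPS2 rose by 0.35 (adjusted p = 0.00571) and MBTPS1 was at 0.16 (adjusted p = 0.0874).

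**Figure D5:**
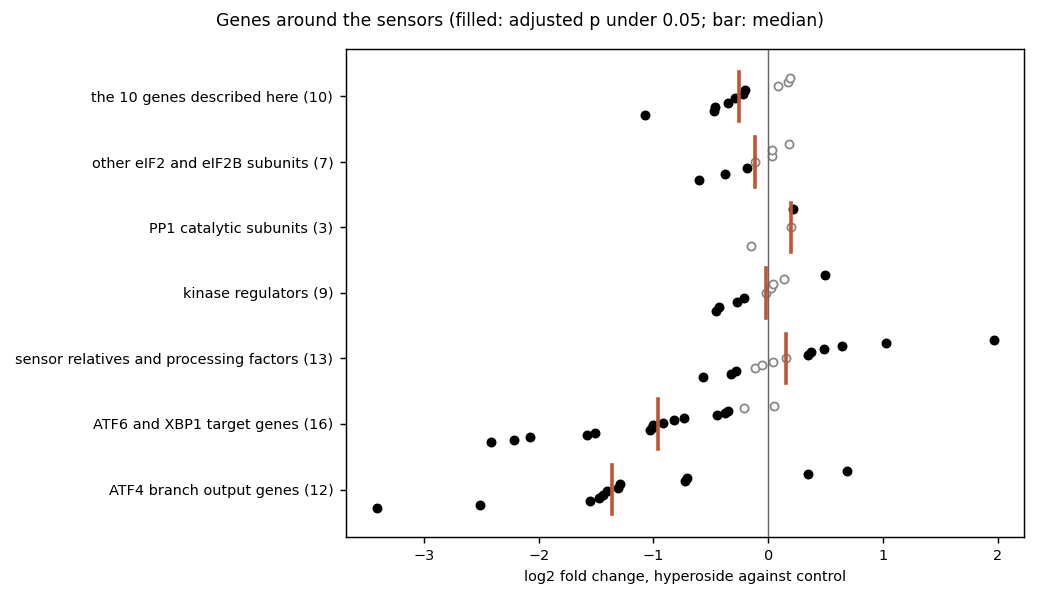
Log2FC (horizontal axis) of the 10 genes and of 6 lists of genes around them, with the number of tested genes in brackets, filled points for an adjusted p under 0.05 and a bar at each median. The medians of the ATF6 and XBP1 targets (-0.96) and of the ATF4 branch (-1.36) lie far to the left of the median of the 10 genes (-0.26), while the sensor relatives have a median of 0.16.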

How the data were processed

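Total RNA from K562 cells was made into libraries with the VAHTS Universal V6 kit and sequenced on an Illumina instrument. The authors deposited raw counts per gene and FPKM values, which are those counts scaled to gene length and library total (1 length per gene accounted for 100% of 23241 genes with counts, within 0.1%). The submitters' processing notes name fastp, HISAT2, HTSeq and hg38, and the annotation and use of strand are not given in the sources used here. Libraries were grouped by the sample titles. The count table was tested with edgeR 4.0.16 under R 4.3.3 (filterByExpr with a minimum count of 10 and a minimum total of 15, TMM, quasi-likelihood test, Benjamini-Hochberg adjustment over 15095 genes), and the steps were tested on simulated data. The standard error is the log2 fold change divided by the square root of F. DESeq2 1.42.0 and limma 3.58.1 served as alternatives. Ratios of FPKM were compared with two-sided exact permutation tests in scipy 1.17.1, and plots were drawn with matplotlib 3.10.9. Positions came from RefSeq and GENCODE 29 on GRCh38. Counting errors cover sampling of reads only. The 10 genes and the lists around them were chosen with earlier results of these data known. Genes named from a list were the 4 with the smallest adjusted p and chosen direct partners of the 10 genes, not all of them. Others are marked in the text. Replicates of a group differed by more than counting error (chi-square per degree of freedom 6.46 to 24.4). One marker gene is not reported here.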

Additional observations from a re-analysis of the deposited data

How the results depend on the processing

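Over 14 alternatives (another normalization, DESeq2, no filter on low counts, limma on FPKM, a block for replicate number, and omission of each library), ERN1, XBP1, EIF2AK1, EIF2AK4 and PPP1R15B were called lower in each, ATF6 in 4 and EIF2S1 in 5, and all 10 genes kept their sign in each. The number of the 10 genes called lower ranged from 5 to 7 and was 5 with library totals only and 5 with a replicate block. The block changed no other call of the 10 genes than those of ATF6 (adjusted p = 0.0587) and EIF2S1 (adjusted p = 0.0812), and gave 6129 changed genes. No pairing by replicate number was seen in the values. The deviations of same-numbered libraries correlated between -0.081 and -0.033, and 0 of 3 control libraries matched best with their own number. With 3 libraries in a group this check could not exclude pairing, which the labels do not state. With libraries left out in turn, the number called higher ranged from 0 to 1, the 1 being EIF2AK2 without control replicate 3. With limma on log2(FPKM + 1), 0 genes passed the 2-fold rule, with and without the filter, where the added 1 shrinks the change of ERN1 to -0.83. With FPKM + 1 the differences of the ratios were 0.54 for PPP1R15A to PPP1R15B and -0.67 for ERN1 to ATF6, and that of the EIF2AK1 share was -3.64 percentage points. Depth did not limit the 10 genes, whose lowest count was 964.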
